A study of Mus musculus with 4 samples.

Results

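The comparison set Ets2-deficient against Ets2-expressing macrophages of mammary tumors, 1 microarray a side. It was the log2 level on the deficient array minus that on the expressing array. Its members were the genes whose brighter tumor array lay at or above the median of all probe sets on that array, called bright here, and they numbered 7225 of the 12393 genes measured. No measured difference entered that rule. Both tumors were early-stage and driven by PyMT, the polyoma middle T oncogene, in mice with YFP in their macrophages, and the YFP-positive cells had been sorted. The deficient array is labelled null, with 2 copies of Ets2 deleted. The control array is titled wild type, but its source label gives it 1 copy of Ets2. A pair of arrays from remodeling mammary glands without tumor, 1 labelled wild type and 1 with 2 copies of Ets2 deleted, is quoted below for reference. The labels say neither which exons were deleted, nor what drove the deletion or the YFP, nor how many mice gave the single RNA sample of each group. Whether the tumor epithelium also carried the deletion is therefore not known here, and "with Ets2" and "without" name arrays below.

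Ets2 is a transcription factor of the ETS family, which binds DNA at a GGAA core and is switched on by phosphorylation downstream of Ras and MAP kinase. Macrophages depend for survival on the growth factor CSF1, whose receptor signals through that route. In mammary tumors macrophages are known for remodeling matrix, helping vessels to grow and easing the escape of tumor cells, and PyMT tumors arise from the secretory epithelium that makes milk.

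With 1 array a side there was no replicate, no test was run, and "higher" or "lower" means higher or lower without Ets2, on those 2 tumor arrays. The only error available came from genes read by more than 1 probe set: over 2401 genes with several bright probe sets, the standard deviation of the difference had a median of 0.219 log2 and a 95th percentile of 0.651. The tumor array medians were 6.22 with Ets2 and 6.30 without, and a value below the 25th percentile, 4.32 and 4.29, was read as background. The Actb control probe sets differed more between their 3' and 5' ends on the deficient tumor array (3.54 against 3.30) and so did those of Tfrc (5.27 against 5.03), while those of Gapdh differed less (2.27 against 2.45). Macrophage identity was in place on both: of 22 measured identity genes 21 were bright, none was at background, and none passed 2-fold (median difference -0.07). Csf1r, the CSF1 receptor, lay at 13.17 and 13.14, and the transcription factor Spi1 at 9.49 and 9.47. Further bright probe sets of Csf1r differed by 0.06 and -0.84, so its reading depended on the probe set. The identity gene that was not bright was Itgam, which encodes CD11b and lay below the median on both arrays (5.99 and 5.26). Ets2 itself, read by 1 probe set, lay at 12.77 and 12.67, and a probe set outside the deleted part would check nothing.

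Promoter sequences of 3 casein genes stand first because these genes, which encode the main proteins of milk, had some of the largest differences of the comparison. Each run is the 250 bases before the RefSeq start in GRCm38.p6, printed 5' to 3' on the gene's own strand. Capitals mark a match to TTCNNNGAA, the palindrome that STAT factors bind, STAT5 being the factor through which prolactin drives casein transcription. Csn2 lies at chr5:87699426-87699675 on the minus strand, and its match runs from base -93 to -85 before the start. Csn1s1 lies at chr5:87665958-87666207 on the plus strand, with a match from -100 to -92. Csn1s2a lies at chr5:87774200-87774449 on the plus strand and had no match in this window.
Csn2: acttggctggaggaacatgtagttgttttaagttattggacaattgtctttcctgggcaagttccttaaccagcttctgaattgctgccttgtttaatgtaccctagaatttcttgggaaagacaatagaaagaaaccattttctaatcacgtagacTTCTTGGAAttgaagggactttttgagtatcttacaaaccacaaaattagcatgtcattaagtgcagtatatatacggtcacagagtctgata
Csn1s1: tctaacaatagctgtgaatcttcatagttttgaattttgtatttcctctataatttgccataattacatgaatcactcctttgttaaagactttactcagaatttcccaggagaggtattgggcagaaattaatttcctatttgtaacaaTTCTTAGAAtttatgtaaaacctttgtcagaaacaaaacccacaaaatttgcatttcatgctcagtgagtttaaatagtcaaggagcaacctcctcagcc
Csn1s2a: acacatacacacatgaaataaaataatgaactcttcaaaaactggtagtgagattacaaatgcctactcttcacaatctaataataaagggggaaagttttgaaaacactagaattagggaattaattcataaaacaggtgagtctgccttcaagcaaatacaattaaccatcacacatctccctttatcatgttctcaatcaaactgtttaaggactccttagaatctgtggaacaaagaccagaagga

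Csn2, which encodes beta-casein, lay at 4.64 and 3.68 on the remodeling arrays (Ets2-expressing, then deficient), at 7.54 in the tumor with Ets2 and at 11.24 in the tumor without. Csn1s1, an alpha-casein gene, was dim on the first 3 of these arrays (4.00, 3.67 and 4.58) and bright on the deficient tumor array (8.06). Csn1s2a, another alpha-casein gene, lay at 5.03, 4.58, 7.47 and 10.33 in the same order. All 3 caseins were therefore brightest on the deficient tumor array, by 3.70, 3.48 and 2.86 log2 over the other tumor array, while the tumor array with Ets2 already lay above both remodeling arrays. A further bright probe set differed by 2.65 for Csn2 and by 2.52 for Csn1s2a.

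Among all 7225 bright genes, 161 (2.23%) were higher and 55 (0.761%) lower by 2-fold or more. Higher genes thus made up 74.5% of those past 2-fold. That share was 58.1% (126 higher and 91 lower) after centring each array on its median and 59.6% (143 and 97) after quantile normalization. It moved the other way, to 82.7% (191 and 40), after centring on the hybridization control probe sets. Most genes differed little: 84.7% lay within 1.5-fold, the median was 0.03, and the 5th and 95th percentiles were -0.62 and 0.76. At 1.5-fold 670 genes (9.27%) were higher and 433 (5.99%) lower, at 3-fold 37 (0.512%) were higher and 4 (0.0554%) lower, and at 8-fold 4 were higher and none lower. The line at 2-fold cut through a dense range, with 25 genes up to 0.05 log2 inside it and 30 outside on the higher side, and 15 and 20 on the lower side. The spread fell with brightness, from a standard deviation of 0.590 in the dimmest 25% of bright genes to 0.294 in the brightest, and the dimmest 25% held 88 of the 161 higher and 36 of the 55 lower genes.

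**Figure D1:**
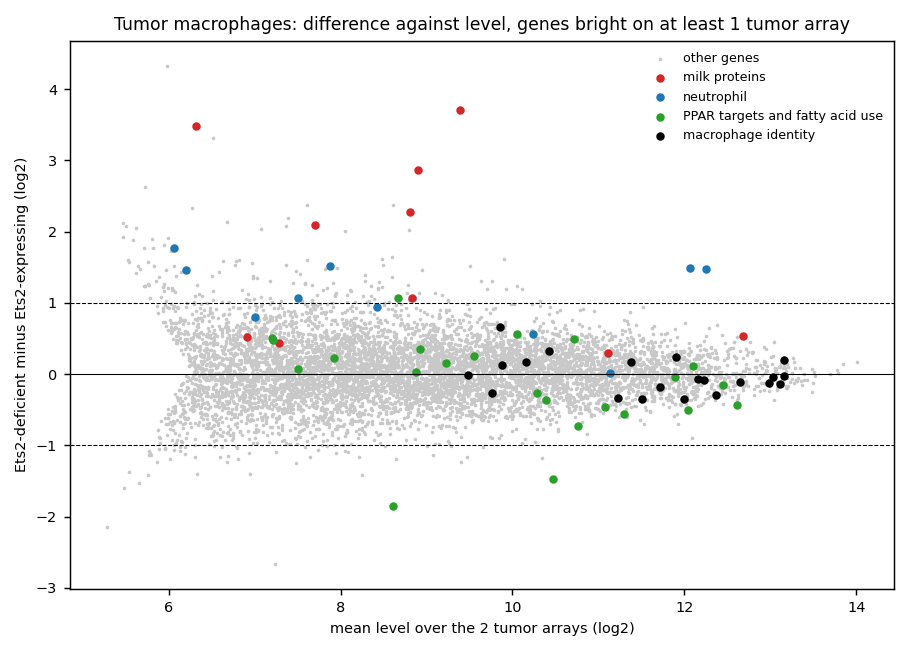
The Ets2-deficient minus Ets2-expressing difference (log2, vertical) is plotted against the mean level on both tumor arrays (log2, horizontal) for the 7225 bright genes, 1 point a gene, with 2-fold marked by dashed lines. Milk protein genes (red) reach 3.70, neutrophil genes (blue) lie at or above 0.02, and the macrophage identity genes (black) stay inside 2-fold.

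Many of the higher genes were dim in macrophages of the remodeling gland. Of the 161, 88 (54.7%) lay below the median on both remodeling arrays, against 10 of the 55 lower genes (18.2%), 5.13% of all bright genes and 17.1% of the dimmest 25% of them. On the Ets2-expressing tumor array 66 of the 161 (41.0%) lay below the median, and the other 95 were bright on both tumor arrays. The shares there were 3.00% of all bright genes and 12.0% of the dimmest 25%. Of the lower genes, 32 of 55 (58.2%) lay below the median on the deficient array, against 3.11% and 12.5%. By the brightness rule a called gene could be dim only on the tumor array where it was lower, so these counts partly follow from that rule. At background on the dimmer tumor array were Mucl1, a mucin-like secreted protein of glandular epithelium, among the higher genes and Dmbt1, a secreted scavenger receptor of mucosal epithelium, among the lower. Mucl1 lay at 3.86, 3.91 and 3.82 on the other arrays and at 8.15 on the deficient tumor array. Dmbt1 ran the other way, at 4.00 and 4.08 on the remodeling arrays, 6.36 on the Ets2-expressing tumor array and 4.21 on the deficient one.

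**Figure D2:**
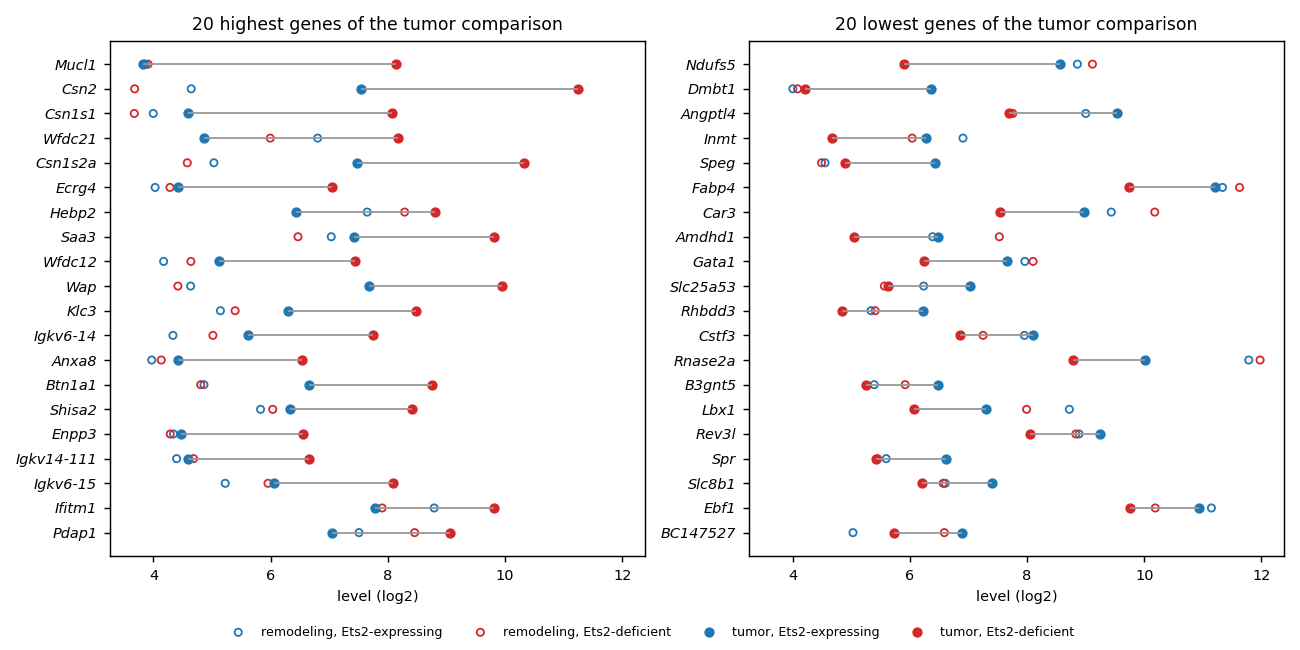
Levels (log2, horizontal) of the 20 highest and 20 lowest genes of the tumor comparison are drawn on all 4 arrays, with filled points for tumor, open points for remodeling glands, blue for Ets2-expressing, red for Ets2-deficient and a grey line joining the tumor arrays. For Csn2 and most other genes of the left panel the open points lie left of the deficient tumor point, and in the right panel Fabp4 and Rnase2a were brighter on both remodeling arrays than on the deficient tumor array.

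Several milk protein genes were among the highest of the comparison. Of 13 measured, 10 were bright and 6 of those passed 2-fold, none lower (median 1.58 among the bright, 0.54 over all 13). Besides the caseins these were Wap, the whey acidic protein gene (7.67 and 9.94 on the tumor arrays), Btn1a1, a membrane protein of the milk fat globule (6.66 and 8.75), and Lalba, the alpha-lactalbumin subunit of lactose synthase (8.30 and 9.36). Csn3, the kappa-casein gene that caps the casein micelle, was already at 12.42 on the Ets2-expressing tumor array and reached 12.96 on the deficient one. The milk genes therefore did not share 1 ratio: differences ran from 0.29 for Mfge8, which macrophages also express, to 3.70 for Csn2. The summed level of the list (log2 of the sum of linear values) was 10.27, 9.96, 13.10 and 14.04 on the 4 arrays, and 2 of the 13 genes were at background on each tumor array. Btn1a1 had 2 further, dim probe sets that differed by 0.21 and 0.59.

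Enzymes that make milk fat, a list added after the values were seen and also active in adipocytes and macrophages, were higher in part. Of 20 bright members 3 passed 2-fold: Me1, malic enzyme, which supplies NADPH (6.81 and 8.42, with 1.23 in its other bright probe set), Fasn, fatty acid synthase (8.13 and 9.20), and Thrsp, a regulator of lipogenesis (8.34 and 9.39). The median was 0.35, and genes with high levels on every array, such as Scd1 (12.04 and 12.16) and Lpl (11.91 and 11.86), differed little.

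Structural and regulatory genes of mammary epithelium were also mostly higher. None of 6 bright keratins passed 2-fold, with Krt8 at 10.50 and 11.39, Krt18 at 10.96 and 11.71, and the basal keratins Krt14 (0.95) and Krt5 (-0.28) on opposite sides of 0. The summed keratin level was 9.11, 8.24, 12.02 and 12.75, with 2 of 10 keratins at background on each tumor array. Of 20 bright junction and surface genes 18 lay above 0 and 2 passed 2-fold, the gap junction gene Gjb2 (8.21 and 9.68) and Prom1 (7.04 and 8.06), while Cdh1, E-cadherin, stayed just inside (7.98 and 8.91). All 12 bright members of the mammary transcription factor list lay above 0 (median 0.89), 25 being measured with a median of 0.61. Elf5, the ETS factor of the secretory lineage, lay at 7.87 and 9.09, Sox10 at 8.52 and 9.66, and Sox4 at 8.73 and 9.77. Dim probe sets of Elf5 and Sox10 differed by -0.28 and by -0.18 and 0.16, and Sox4 had bright ones at 1.20 and 0.74. The milk, keratin, junction and transcription factor lists together held 11 of the 161 higher genes and none of the 55 lower ones, out of 48 bright members. Fewer cells of a type and less RNA per cell cannot be told apart in such bulk samples, and the part of epithelial RNA in the other differences was not tested.

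Secreted defense proteins were also higher. Of 19 bright acute-phase and defense genes 17 lay above 0 and 4 passed 2-fold upward: Mucl1, Wfdc21 and Wfdc12, small proteins with the whey acidic protein fold, and Saa3, a serum amyloid made by macrophages and epithelium. Wfdc21 lay at 6.80, 5.99, 4.86 and 8.18, so the Ets2-expressing tumor array was the lowest of the 4. Saa3 lay at 7.03, 6.47, 7.43 and 9.80, whereas Saa1, bright in both tumors, differed less (11.04 and 11.67). Lcn2, lipocalin-2, which binds bacterial siderophores, was similar at 12.02 and 12.35. Dmbt1 was the member of this list past 2-fold downward.

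Neutrophil genes were higher as a group. Of 17 measured 10 were bright, and 6 of these passed 2-fold (median 1.27, or 0.94 over all 17). S100a8, one chain of the antimicrobial protein calprotectin, lay at 12.50 and 11.87 on the remodeling arrays, 11.32 on the Ets2-expressing tumor array and 12.80 on the deficient one. S100a9, its partner, lay at 12.82, 12.28, 11.51 and 12.98. For both genes the lowest of the 4 arrays was thus the Ets2-expressing tumor array and the highest the deficient tumor array. The other genes past 2-fold were Stfa3, a stefin protease inhibitor (5.18 and 6.95), the lipase inhibitor G0s2 (7.12 and 8.63), the surface protein Cd177 (5.47 and 6.93) and the chemokine receptor Cxcr2 (6.98 and 8.04). Mmp9, a gelatinase that macrophages share, was level in the probe set used (11.12 and 11.14), but its other bright probe set differed by -0.49. The summed level was 14.27, 13.89, 13.22 and 14.35, with 1 of the 17 genes at background on each tumor array, and the part of neutrophil RNA in other differences was not tested.

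Lists of the other white cells leaned lower, with few genes past 2-fold. Of 6 bright mast cell genes 5 lay below 0, led by the transcription factor Gata1 (7.65 and 6.24), with Mcpt4, Cpa3 and Cma1, the mast cell proteases, at -0.79, -0.66 and -0.49. Of 3 bright eosinophil genes Rnase2a, an eosinophil ribonuclease, was lower at 10.02 and 8.78, below both remodeling arrays (11.78 and 11.98), while Siglecf differed by -0.10. T and NK cell genes had 10 of 13 bright members below 0 (median -0.27). Icos, a costimulatory receptor of T cells, passed 2-fold in the probe set used (7.27 and 6.12) and in its other one (-1.04), Cd4 lay at 7.97 and 7.09, and Cd3e differed little (11.11 and 10.97). Of 8 bright B cell genes 6 lay below 0 and none passed 2-fold in the probe set used (median -0.36). With the brightness limit at the 75th percentile the median turned to 0.034, the members left including Ighm (0.45) and Cd79b (-0.38). Cd79a lay at 7.59 and 6.92. Ms4a1, CD20, lay at 8.58 and 8.18, but its other bright probe set passed 2-fold (-1.11). Ebf1, a B lineage and adipocyte transcription factor outside that list, was lower at 10.93 and 9.76, with -0.50 in its other bright probe set. The B cell and T and NK cell sums differed little between the tumor arrays (11.58 and 11.56, 12.88 and 12.76). The B cell sum includes Ighm, the brightest member, which was higher (10.04 and 10.49) and whose probe sets disagreed.

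Immunoglobulin genes went both ways, and their list was added after the values were seen. Of 8 bright gene segments 3 kappa variable segments passed 2-fold upward: Igkv6-14 (5.62 and 7.75), Igkv14-111 (4.60 and 6.65) and Igkv6-15 (6.05 and 8.09). All 3 lay below the median of the Ets2-expressing tumor array, so they counted as bright only through the deficient one. The median difference was 0.35 among the bright segments and 0.17 over all 18 measured, of which 11 lay above 0. The heavy chain segment Ighv14-2, at 10.67 and 9.90, was among those below 0. The plasma cell product Jchain, the joining chain of secreted antibody, lay at 10.73 and 10.76, far above the remodeling arrays (4.31 and 5.35), and Igha, the constant region of IgA, at 11.87 and 12.08. Variable segments are close copies of one another, so probe sets may read several of them, and single segments are uncertain.

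**Figure D3:**
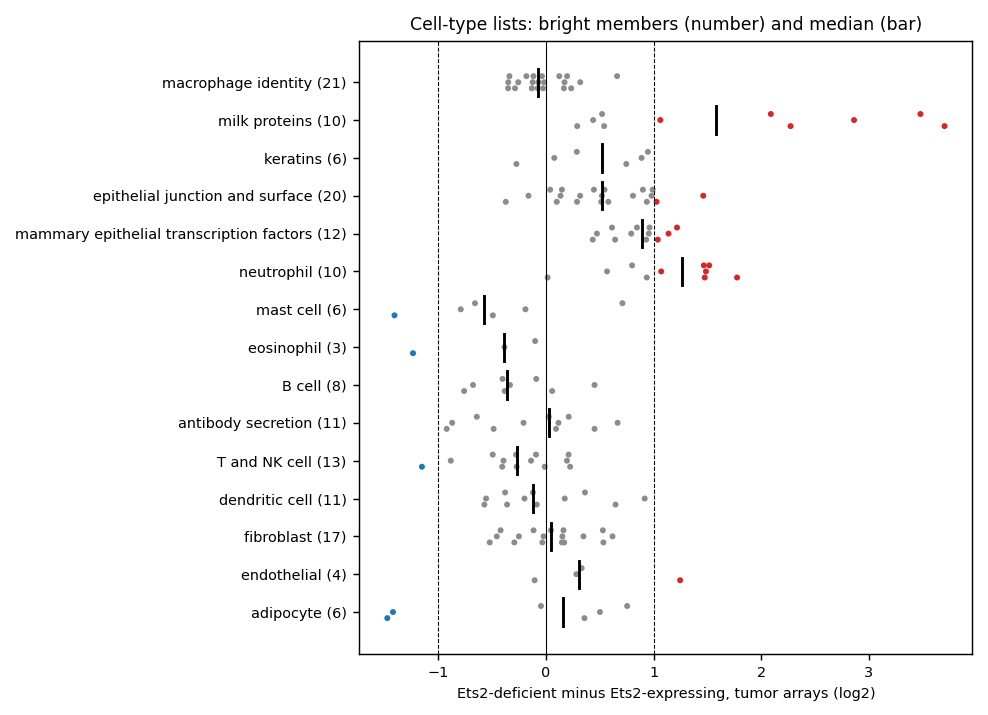
Each point is 1 bright gene of a cell-type list, placed by its Ets2-deficient minus Ets2-expressing difference on the tumor arrays (log2), red at or above 2-fold higher, blue at or above 2-fold lower, with a bar at the list's median and the number of bright genes in brackets. Milk protein and neutrophil lists have medians of 1.58 and 1.27, and macrophage identity genes cluster around -0.07.

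A few genes of fat handling were among the lowest of the comparison. Angptl4, a secreted inhibitor of lipoprotein lipase and a target of PPAR receptors, lay at 9.0 and 7.76 on the remodeling arrays and at 9.53 and 7.69 on the tumor arrays, so both deficient arrays were lower. Its other bright probe set differed by -1.24 in the tumor. Fabp4, a fatty acid carrier of adipocytes and macrophages, lay at 11.34, 11.63, 11.21 and 9.73, so the deficient tumor array alone was low, and a second bright probe set gave -1.43. Car3, a carbonic anhydrase abundant in adipocytes, ran the same way at 9.44, 10.18, 8.97 and 7.54. Of 23 bright PPAR targets and fatty acid genes 2 were lower past 2-fold and 1 higher, and 12 lay above 0. Hadhb, the beta subunit of the mitochondrial trifunctional protein, lay at 11.13 and 10.40, but its partner Hadha at 6.97 and 7.45. Pparg itself lay at 6.96 and 7.46. Of 15 measured adipocyte genes only 6 were bright, and of these 3 lay above 0, Gpd1 for one (8.03 and 8.39). Their median was 0.16, and -1.42 with the brightness limit at the 75th percentile.

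Genes that mark lipid-laden tumor macrophages did not pass 2-fold in either direction, 13 being bright with a median of -0.08. Trem2, a lipid receptor of such cells, came nearest at 9.64 and 8.66, and Gpnmb lay at 11.43 and 10.98. Cholesterol efflux genes had 6 of 8 below 0, with Abca1, the cholesterol pump, at 11.35 and 11.02.

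Proliferation genes were higher by small amounts. Of 23 bright mitosis genes 20 lay above 0 (median 0.54), against 53.1% of all bright genes, and 2 passed 2-fold. These were Cdc20, which activates the ligase that starts anaphase (6.81 and 8.09), and Pbk, a mitotic kinase (7.52 and 8.71). Cdk1, the mitotic kinase proper, lay at 7.69 and 8.45, but Mki67 was level at 8.21 and 8.28. In S phase genes 22 of 30 lay above 0 (median 0.34), and Mcm10, a replication initiation factor, passed 2-fold from a dim start (4.88 and 6.40). The mitosis genes also lay higher on the deficient remodeling array, where Pbk passed 2-fold (6.65 and 8.30) and the list's median difference was 0.78.

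Mitochondrial genes were higher by small amounts across most members. Of 72 bright mitochondrial ribosomal protein genes 60 lay above 0 (median 0.32), and 59 lay above the median of all bright genes. For the respiratory chain and ATP synthase it was 64 of 76 (median 0.25) and 62. Mrps14, a small-subunit protein, was past 2-fold at 8.27 and 9.31, and Cox5b, a subunit of complex IV, lay at 12.81 and 13.26. The exception was Ndufs5, an accessory subunit of complex I and the lowest gene of the whole comparison, at 8.86, 9.12, 8.57 and 5.91 by its single probe set. No other bright member of that list passed 2-fold. The constitutive proteasome had 23 of 34 genes above 0 (median 0.21) and the cytosolic ribosome 27 of 44, its median of 0.06 turning to -0.02 after median centring. Glycolysis and hypoxia genes had 21 of 26 above 0 (median 0.24) with none past 2-fold, Mif, a cytokine under hypoxic control, lying at 10.08 and 10.95.

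Interferon response genes leaned lower, 21 of 29 bright members lying below 0 (median -0.22). Ifi204, a nuclear DNA sensor, was the member past 2-fold, at 9.51 and 8.50. Ifit3 and Ifit2, antiviral proteins, differed by -0.72 and -0.64, and the chemokine Cxcl9 by 0.21. Class I presentation genes had a median of -0.19, with the peptide transporter Tap2 at 7.20 and 6.63 and B2m, the shared light chain, at 13.10 and 13.22. Class II genes were level and bright, with Cd74 at 13.69 on both arrays.

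Genes of the MAP kinase pathway and the ETS family leaned lower by small amounts. Of 24 bright immediate early and MAP kinase feedback genes 18 lay below 0 and none passed 2-fold (median -0.16). Junb, an AP-1 subunit, lay at 9.90 and 9.31, Ier3 at 12.19 and 11.63, and Dusp1, a MAP kinase phosphatase, at 13.03 and 13.08. Of 18 bright ETS family genes 12 lay below 0 (median -0.15), while the 2 past 2-fold, Elf5 and Elf4 (5.76 and 6.85), were higher. The relative Ets1 lay at 10.90 and 10.40, with -1.16 and -0.55 in its other bright probe sets, and Fli1 at 10.18 and 10.27.

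Matrix, vessel and growth factor genes had a few members past 2-fold. Thbs1, the antiangiogenic thrombospondin-1, lay at 9.09, 7.34, 5.25 and 6.32, so the tumor arrays lay below both remodeling arrays. Its tumor difference of 1.07 was fragile and reached down to 0.63. In 6 processing settings, median centring and quantile normalization among them, Thbs1 was no longer counted past 2-fold. Thbs2 and Timp3 were near level (differences of 0.19 and -0.18), and Timp1, a metalloproteinase inhibitor, was just inside 2-fold (6.25 and 7.16). Of 14 bright growth factor genes 3 passed 2-fold, Tgfb2 (7.68 and 9.30), Tgfb3 (7.17 and 8.28) and Pdgfb (5.40 and 6.60), while Tgfb1, the form macrophages make most, lay at 8.97 and 8.91. A second bright probe set of Tgfb2 differed by 0.36. Plvap, a diaphragm protein of endothelium, lay at 5.71 and 6.95, but the endothelial receptor genes Flt1 and Tek differed by 0.33 and -0.11. Ctsk, a collagen-degrading cathepsin, was the lower member of its list (7.13 and 6.11).

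Effector genes of macrophages were mostly level. Of 20 bright inflammatory genes Acod1, which makes itaconate, passed 2-fold (7.23 and 8.44), Il1b lay at 11.07 and 11.66 and Tnf at 7.98 and 8.51, and Il10 leaned the other way (10.94 and 10.41). Among 27 bright chemokine and receptor genes Cxcl13, which attracts B cells, was higher in both its bright probe sets (1.62 and 1.16), while Cxcl12 (8.95 and 7.98) and the other chemokine genes stayed inside 2-fold. Retnla and Selenop, of the alternative activation list, lay at 13.61 and 13.36 and at 13.28 and 13.08. For 11 lists the sign of the median depended on the scaling of the arrays, the medians lying between -0.05 and 0.06 as deposited: class II, PPAR targets, alternative activation, antibody secretion, chemokines, cholesterol synthesis, histones, cytosolic ribosome, fibroblast, growth factors and inflammatory genes.

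Single genes past 2-fold stood in several stress and timing lists. Asns, asparagine synthetase of the amino acid response, lay at 7.78 and 9.42 (0.94 in its other bright probe set), whereas Atf4, the factor that drives it, lay at 11.66 and 11.52, and Ddit3 at 6.96 and 5.98. Hspb1, a small heat shock protein, lay at 7.84 and 9.04. In the clock list Per2 was lower (6.37 and 5.23) and Nfil3, a repressor, higher (9.10 and 10.30), and 9 of 14 bright members lay below 0 (median -0.27, turning to 0.19 with the brightness limit at the 75th percentile). Hebp2, a heme-binding protein, lay at 6.43 and 8.80, with 1.92 in its other bright probe set.

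**Figure D4:**
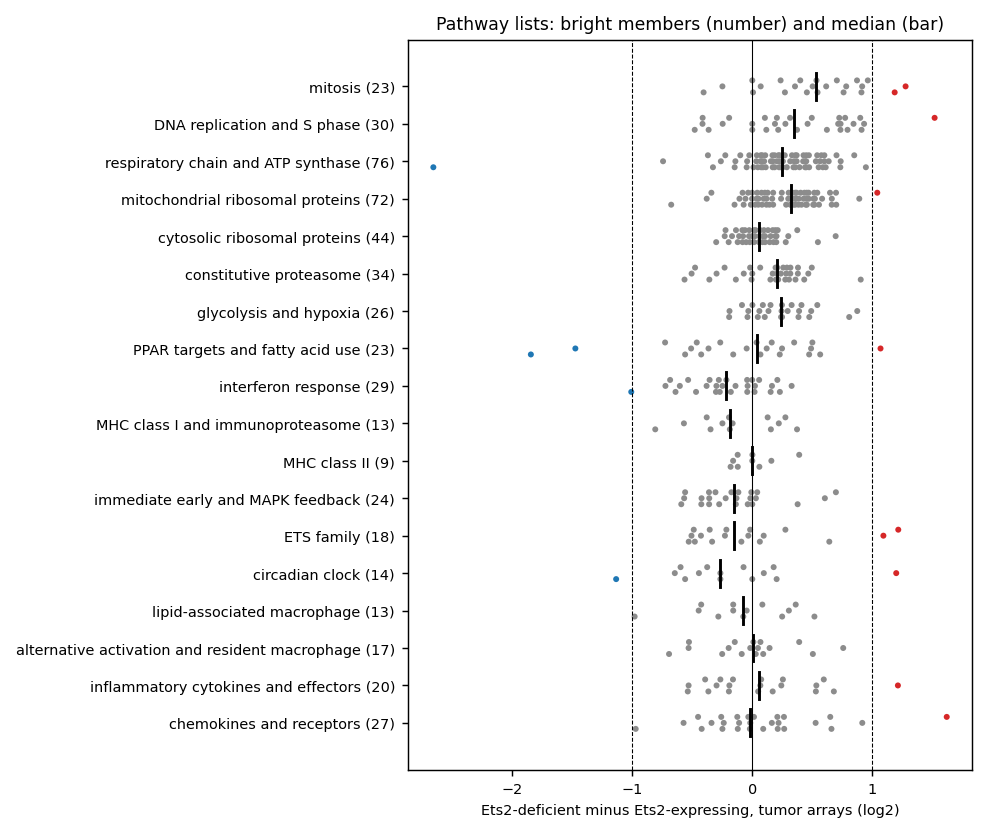
Points are bright genes of the pathway lists, placed by the Ets2-deficient minus Ets2-expressing difference on the tumor arrays (log2), with colours, bars and bracketed numbers as for the cell-type lists. The mitochondrial lists lie mostly right of 0 with Ndufs5 alone at -2.66, and the interferon list mostly left of it.

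The lists held 43 of the 161 higher genes (26.7%) and 12 of the 55 lower ones (21.8%), against 11.2% of all bright genes, so most genes past 2-fold still belonged to no list. Among the 20 highest these were the secreted Ecrg4 (4.42 and 7.04), the kinesin light chain Klc3 (6.29 and 8.48), the annexin Anxa8 (4.41 and 6.54), Shisa2 (6.32 and 8.40, with 1.69 in its other bright probe set), the ectonucleotidase Enpp3 (4.47 and 6.54), the interferon-induced membrane protein Ifitm1 (7.78 and 9.80) and Pdap1 (7.05 and 9.05). Pdap1 differed by 0.16 in its other bright probe set, so the reading of that gene depended on the probe set. Among the 20 lowest were the methyltransferase Inmt (6.28 and 4.68), the histidine-degrading enzyme Amdhd1 (6.47 and 5.06), the mitochondrial carrier Slc25a53 (7.03 and 5.63), Rhbdd3 (6.22 and 4.85), Cstf3, a factor of messenger RNA 3' end formation (8.10 and 6.86), B3gnt5 (6.48 and 5.25), Lbx1 (7.29 and 6.07), the DNA polymerase subunit Rev3l (9.24 and 8.05), Slc8b1 (7.40 and 6.21), Spr (6.61 and 5.43) and BC147527 (6.90 and 5.73). The kinase gene Speg, of the muscle list, lay at 6.42 and 4.89. Some names chosen after their values were seen belong to glandular epithelium: Aqp5, a water channel (7.73 and 9.26), Fxyd3, a sodium pump regulator (8.75 and 10.26), Car12 (6.19 and 7.74) and Mal2, of apical transport (4.76 and 6.33), all at or below 5.04 on both remodeling arrays.

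Probe sets of the same gene agreed in direction more often than in size. Of 216 genes past 2-fold, 121 had 1 probe set and 30 had several bright ones. In 27 of those 30 all bright probe sets lay on 1 side of 0, and in 14 all passed 2-fold. Fubp1, a single-strand DNA-binding protein, was one that disagreed, with 1.34 in the probe set used and -0.20 and -0.36 in the others.

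**Figure D5:**
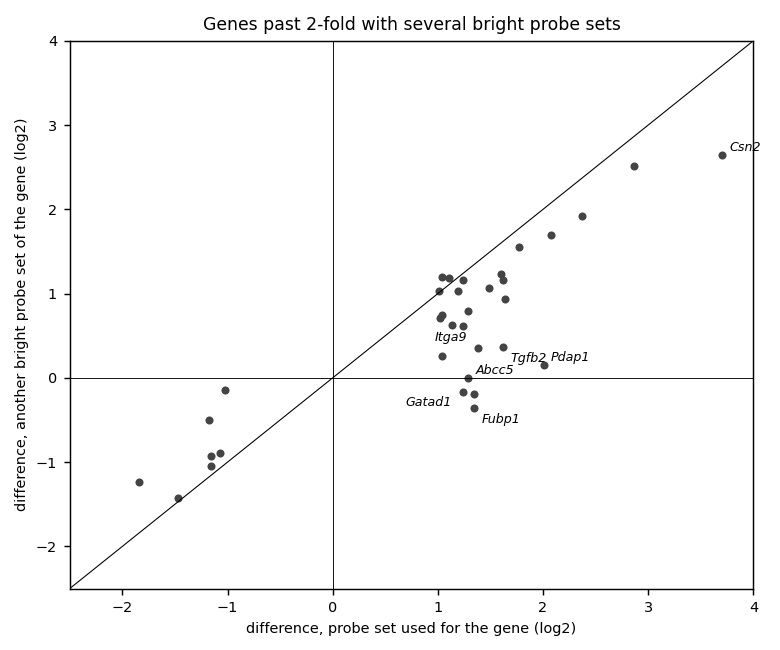
For genes past 2-fold with several bright probe sets, the difference in each further bright probe set (log2, vertical) is plotted against that of the probe set used for the gene (log2, horizontal), with a line where both are equal. Csn2 lies at 3.70 and 2.65, and Pdap1 and Fubp1 lie far below the line.

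Most genes past 2-fold in tumor macrophages were not past it in the remodeling gland. Of those that were, the higher genes mostly ran the opposite way there and the lower genes mostly the same way. Of the 161 higher genes 72 were bright there, and 2 were higher and 13 lower past 2-fold, where 1.31% and 5.17% of 7095 bright genes were. Of the 55 lower genes 45 were bright there, and 2 were higher and 8 lower. Vcan, a matrix proteoglycan, lay at 8.64 and 6.06 on the remodeling arrays and at 5.86 and 7.30 on the tumor arrays. Acod1 lay at 9.03 and 6.66 in the remodeling gland and Tgfb2 at 9.31 and 7.45, so that both ran opposite ways in the 2 settings. Lower in both were Angptl4, Ctsk, Per2, the carboxylesterase gene Ces2g (8.68 and 5.54, then 7.18 and 6.02), Itih5 (10.53 and 8.01, then 9.64 and 8.50), Dpep1, Abca8a and Tal1. Gjb2 and Pbk were the genes higher in both.

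Motif searches covered the 250 bases before the RefSeq start, both strands, for the 125 higher, 38 lower and 5905 bright genes with an entry. The ETS motif CCGGAAG was found in 7.20% of higher, 10.5% of lower and 15.3% of all bright promoters. The related AGGAAG, which shares GGAAG with it but cannot match at the same place, was found in 33.6%, 23.7% and 28.9%. Over all 27025 promoters, bright or not, the shares of these ETS motifs were 7.05% and 29.2%. The STAT motif TTCNNNGAA was found in 6.40% of higher, 2.63% of lower and 5.81% of bright promoters, and in 3 of the 7 milk protein promoters in the table. The CCAAT box was found in 39.2%, 26.3% and 36.6%, and in 15 of 19 mitosis promoters. The interferon element GAAANNGAA was found in 15 of 22 promoters of the interferon list, against 6.37% of bright ones. A match is a stretch of letters and not a bound site.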

How the data were processed

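RNA from 4 sorted macrophage samples, about 10 ng each per the labels, was amplified as cDNA, biotin-labelled and hybridized to Affymetrix mouse arrays of 22690 probe sets. The values used were log2 expression values as the authors deposited them. GCOS and RMA are the tools in the submitters' processing notes, whose roles and versions are not given in the sources used here. Which arrays entered the normalization is not known. No scaling was added. Genes were named from the array annotation updated through Entrez identifiers: 20380 probe sets named 1 gene, 691 several and 1555 none, besides 64 controls. A gene was read from the probe set brightest on average across the 4 arrays. Differences past 2-fold were counted among genes whose brighter tumor array lay at or above its median.

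The text names the 20 highest and 20 lowest genes, list members past 2-fold, the 3 brightest members of each list, and Ets2, Thbs1, Thbs2, Timp1 and Timp3, as space allowed. Other names were chosen after their values were seen. Members and lists were chosen with earlier results of these data known. The code was checked on simulated arrays with planted differences beyond 2-fold and less spread than the bright genes showed here. That check says nothing about false calls in these data. Python 3.11.15, numpy 2.4.6, pandas 2.3.3 and matplotlib 3.10.9 were used. Alternatives were other scalings, brightness limits, fold limits and probe set summaries.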

Additional observations from a re-analysis of the deposited data

Results flagged for a closer look

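Named genes past 2-fold in opposite directions in the tumor and the remodeling comparison, which share no array, drew attention. The tumor difference minus the remodeling difference was 4.03 log2 for Vcan, 3.59 for Acod1, 3.47 for Tgfb2, 2.82 for Thbs1, 2.37 for Hspb1 and 2.19 for Cxcr2, all higher in the tumor and lower in the remodeling gland. It was -2.73 for BC147527 and -2.56 for Amdhd1, which ran the other way. Under other processing, Thbs1 lost its count past 2-fold in the tumor in 6 alternatives and Vcan in 4. Tgfb2, Cxcr2, Amdhd1 and BC147527 lost it in 2 each and Acod1 in 1. A second bright probe set of Tgfb2 differed by 0.36 in the tumor. With 1 array a group none of these differences between tumor and remodeling gland was tested.

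Probe sets not tied to 1 gene stood outside every gene count. Of 962 bright ones 24 were higher and 9 lower past 2-fold, shares similar to the 2.23% and 0.761% of all 7225 bright genes. The largest difference of the whole tumor comparison, 4.98 log2, belonged to probe set 1451632_a_at, at 4.57 and 4.27 on the remodeling arrays, 4.45 on the Ets2-expressing tumor array and 9.43 on the deficient one. Probe sets 1424631_a_at and 1448931_at differed by 2.08 and 2.04. Their genes are not named here, and the differences were not tested.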

How the results depend on the processing

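The counts of 161 higher and 55 lower genes depended on the settings. Quantile normalization and median centring gave 97 and 91 lower genes, and both held all 55 counted as deposited. Centring on the hybridization control probe sets gave 191 higher and 40 lower genes. Without the brightness limit 102 were lower. With the limit at the 75th percentile 49 were higher and 13 lower, and with both tumor arrays required at or above their medians 95 and 23. The mean over probe sets gave 36 lower genes. At 1.5-fold the counts were 670 and 433, and at 3-fold 37 and 4. Under the median of probe sets Rev3l turned to 0.17, Sox10 to -0.18 and Fubp1 to -0.026. Of 85 named genes past 2-fold, 67 lost that in at least 1 setting. The median of milk protein genes ran from 0.54 without a brightness limit, where those of the mammary transcription factors and neutrophils were 0.61 and 0.94, to 1.67. No paired analysis was possible because each group had 1 array. A single array a side bounds the precision, dim genes most.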

Other observations

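On the tumor arrays 87 of the 7225 bright genes (1.20%) had the same value to the last deposited digit, as had 566 of all 22690 probe sets. Dut, a nucleotide hydrolase gene, lay at 7.46 on both tumor arrays and on the deficient remodeling array.

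Several probe sets annotated to Ighm were dim in the tumor with Ets2 and bright in the tumor without, the widest from 4.74 to 8.38, while the probe set used for the gene lay at 10.04 and 10.49 and another bright one differed by -0.42. The cause was not tested.

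Dim genes past 2-fold, which entered no count, numbered 70 higher and 47 lower of 5168.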
